A study of Homo sapiens with 23 samples.

Results

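Ribosome biogenesis factors are the proteins that transcribe, modify, cut, fold and export the RNA of the ribosome without remaining in the finished particle. The 59 factors described here were listed by gene symbol from their known roles, in 5 groups: RNA polymerase I (Pol I) transcription, small nucleolar ribonucleoproteins (snoRNPs), small subunit assembly, large subunit assembly, and factors acting at several steps. The list was made with earlier results of these data known, so counts over it are descriptions and not an independent test. A probe of the symbol was found for 55 of them, and 54 were measured above background in at least 1 group of arrays, among 14636 genes or unnamed probes tested in all. WDR43, EBNA1BP2, GNL3 and DDX18 were not analysed here, since no probe carried their symbol, and the only probe of NPM1 did not pass. The 54 measured factors comprised 5 of Pol I transcription, 8 of snoRNPs, 20 of the small subunit, 19 of the large subunit and 2 of several steps, read by 77 probes, with 1 probe each for 38 factors.

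Polysomal RNA was taken from diffuse large B-cell lymphoma (DLBCL) lines, SUDHL-2 of the activated B-cell (ABC) type and SUDHL-4 of the germinal centre B-cell (GCB) type, each a single line standing for its type. In the first experiment cells received 40 nM INK128, an ATP-competitive inhibitor of both mTOR complexes, or its vehicle, 0.01% DMSO, for 24 h. In the second, cells were kept with 20 mM EtOH in sealed flasks, or with water, for 48 h, while the labels do not say whether the water flasks were sealed. RNA of sucrose gradient fractions 9 to 11, the polysomes, was pooled and 0.5 µg went to each of 23 Illumina HumanHT-12 arrays, 3 per line and treatment except SUDHL-2 with EtOH, which had 2. Equal RNA went to every array, so a value is the share of a transcript in the polysomal pool, and a change in the amount of an mRNA and a change in its loading on ribosomes cannot be told apart. An array detected 14699 to 17098 probes (detection p at or under 0.02), and arrays of 1 group correlated at 0.959 (the lowest pair, SUDHL-2 with INK128) to 0.998. Of 7 B-cell marker genes 4 were measured, all 4 on every array, and PAX5 was detected on none. With DMSO the B-cell receptor components CD79A and CD79B were lower in SUDHL-2 than in SUDHL-4 and MS4A1, which encodes CD20, was higher (1.04, adjusted p = 0.00337, limma). No T-cell, myeloid, erythroid, stromal or epithelial marker was detected on every array, but CD2 was detected on 21 and LYZ on 18 of 23 arrays, and DCN and EPCAM, on 12 arrays each, differed between the lines by -3.47 and 2.85 on the DMSO arrays (SUDHL-2 minus SUDHL-4).

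In mammalian cells a single precursor RNA made by Pol I in the nucleolus holds the 18S, 5.8S and 28S rRNAs. Box C/D and box H/ACA snoRNPs methylate and pseudouridylate it, the small subunit (SSU) processome folds and cleaves the 18S part, and a separate chain of factors matures the large subunit around the 28S and 5.8S parts. The mTOR pathway promotes Pol I transcription and the translation of ribosomal proteins, and the transcription factor MYC, which binds the E-box CACGTG, is a known activator of many ribosome biogenesis genes.

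The E-box was searched on both strands (it reads the same on each) from 250 bases before to 50 bases after the start of each gene, in RefSeq sequence of build GRCh38.p14. A sequence was at hand for 52 of the 59 factors, and 25 of the 52 (48.1%) held at least 1 E-box. The same window held one in 12.8% of 8575 genes tested on the arrays and in 8.77% of all 27305 genes with a sequence, while the median GC content was 63.8% in the factors and 65% in the genes tested. By step, the E-box was found in 12 of 20 small subunit, 8 of 18 large subunit, 3 of 6 snoRNP and 1 of 5 Pol I genes. In 16 of the 25 factors no whole E-box lay before the start, so that it lay in or across the first transcribed bases (64%), against 12.6% of the genes tested that held one. It was present in 11 of 21 factors that were lower with INK128 in either line and in 11 of 27 that were not. Both are descriptions of sequence, and binding was not measured. For factors whose response is described below and whose E-box lies wholly before the start, 24 bases are shown 5′ to 3′ on the strand of the gene, with the E-box in capitals. CCDC86 lies at chr11:60842079-60842102, plus strand, UTP4 at chr16:69132624-69132647, plus strand, DDX21 at chr10:68956607-68956630, plus strand, NAT10 at chr11:34105605-34105628, plus strand, and NOP10, with 1 of its 2 E-boxes shown, at chr15:34343292-34343315, minus strand.
CCDC86: cgggggctgCACGTGcgcaggggt
UTP4: gcgcgcgcgCACGTGgggccgggg
DDX21: cgggtgtccCACGTGgtccccggc
NAT10: gcgcttgcgCACGTGctgtctacc
NOP10: gggacactcCACGTGttttagcct

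INK128 was set against DMSO in each line to ask which factors changed in the polysomal pool when mTOR was inhibited. Every factor that passed the test was lower with INK128: 5 of 54 in SUDHL-2 and 18 of 54 in SUDHL-4, with none higher. A factor is called where limma's adjusted p, over all entries tested, is under 0.05. Among all entries 1.47% were called lower and 2.15% higher in SUDHL-2, and 7.17% lower and 8.27% higher in SUDHL-4. The median log2 fold change of the 54 factors was -0.46 in SUDHL-2 (all entries 0.03) and -0.43 in SUDHL-4 (all entries -0.06). The fold change was below 0 in both lines for 47 of the 54 factors (87%), against 27.5% of all entries. All 3 INK128 arrays lay below all 3 DMSO arrays for 27 factors in SUDHL-2, where 7.99% of all entries did so, and for 37 in SUDHL-4, where 18.3% did. The 20 factors that did so in both lines (3.08% of all entries did) came from each step of the pathway and included POLR1C, NOLC1, GAR1, BYSL, LTV1, UTP4, UTP20, RRS1, CCDC86, NOP2, PES1, WDR12, NCL and DDX21.

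**Figure D1:**
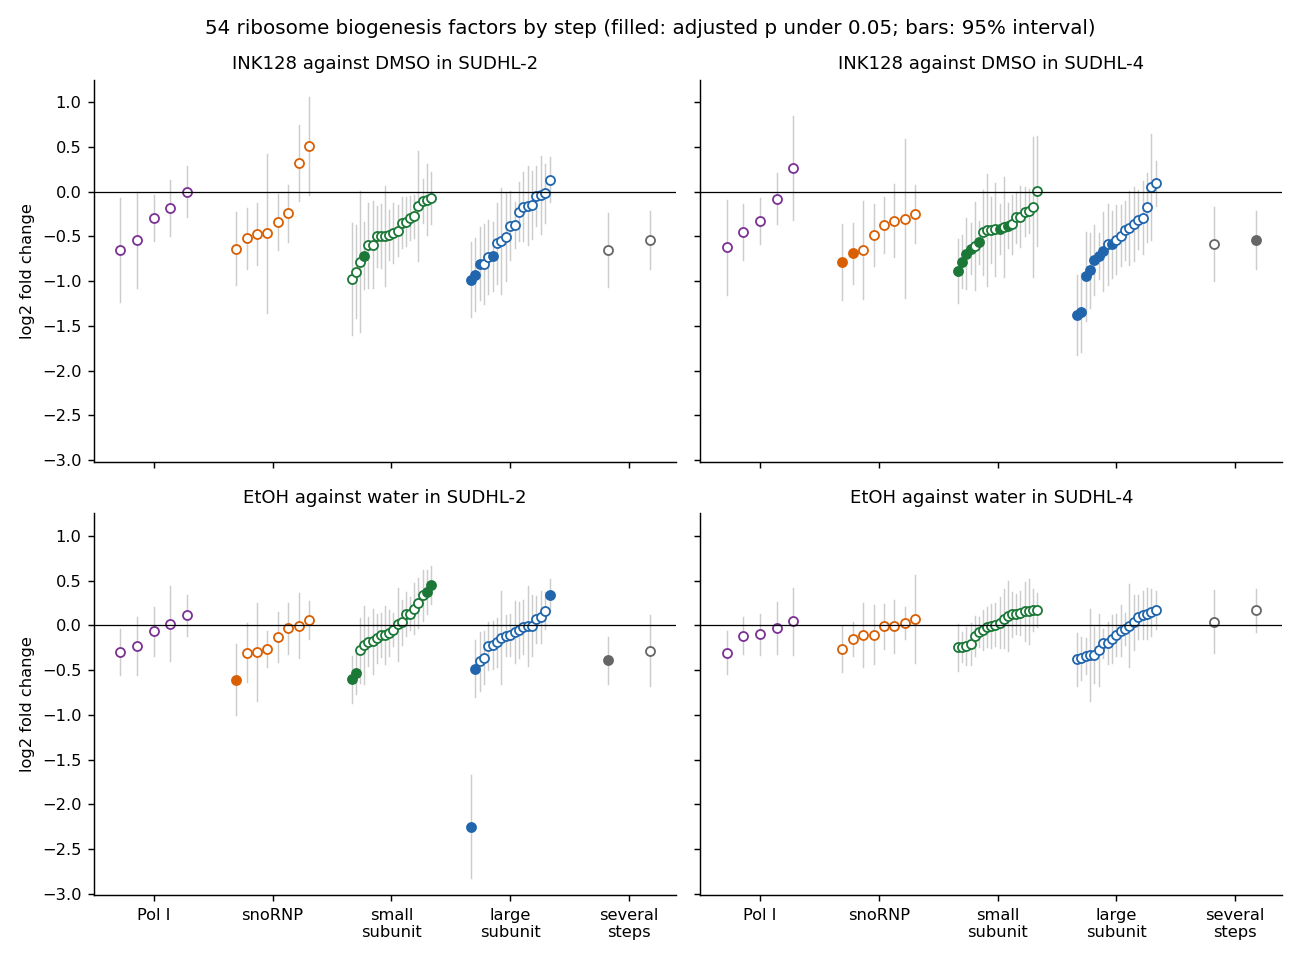
Log2 fold change (y axis) of 54 factors, ordered from low to high within each step (x axis), in the 4 treatment comparisons. Circles are fitted values, bars the 95% interval, and filled circles have an adjusted p under 0.05. With INK128 the 5 called factors in SUDHL-2 and the 18 in SUDHL-4 lie below 0, with EtOH 6 called factors lie below and 3 above 0 in SUDHL-2, and none is called in SUDHL-4.

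The large subunit group held 4 of the 5 factors called in SUDHL-2 and 8 of the 18 called in SUDHL-4. RRS1, which with RPF2 brings the 5S particle into the forming large subunit, was the only factor called in both lines. In SUDHL-2 its standardised log2 signal, in which 0 is the mean of the probes kept on an array, was -0.02, 0.59 and 0.33 on the INK128 arrays against 1.67, 0.94 and 1.23 on the DMSO arrays. In SUDHL-4 it was 2.08, 1.87 and 2.18 with INK128 against 3.09, 2.83 and 2.83 with DMSO. The groups did not overlap in either line, and the fitted log2 fold changes were close to each other, -0.98 ± 0.19, adjusted p = 0.018 for SUDHL-2, and -0.88 ± 0.19, adjusted p = 0.00909 for SUDHL-4 (SE, limma), or 0.506 and 0.545 of the DMSO level. The SUDHL-2 call was lost without SUDHL-2 DMSO replicate 1 (adjusted p = 0.0591) or replicate 3 (adjusted p = 0.0604).

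CCDC86, a nucleolar coiled-coil protein whose yeast relative Cgr1 acts in large subunit assembly, had the lowest log2 fold change of the 54 factors in SUDHL-4. Its values were 0.94, 1.02 and 1.54 on the INK128 arrays against 2.46, 2.83 and 2.34 on the DMSO arrays, a log2 fold change of -1.38 ± 0.21, adjusted p = 0.000841 (limma), or 0.385 of the DMSO level. In SUDHL-2 they were 1.65, 2.07 and 1.97 with INK128 against 3.06, 2.44 and 2.61 with DMSO. The groups did not overlap there either, but -0.80 ± 0.21, adjusted p = 0.0518 (limma), missed the threshold. NOP16, a nucleolar factor of the early large subunit, had 2.73, 2.88 and 2.32 with INK128 against 3.93, 3.98 and 4.07 with DMSO in SUDHL-4 (-1.35 ± 0.20, adjusted p = 0.000865, limma), with more than 1 log2 unit between the nearest arrays of the groups. In SUDHL-2 its values overlapped, 2.97, 3.25 and 3.66 with INK128 against 2.97, 3.47 and 3.55 with DMSO. NOC2L, a component of the NOC complexes that move with the large subunit precursor, had -0.34, 0.02 and -0.27 with INK128 against 0.87, 0.53 and 0.85 with DMSO in SUDHL-4 (-0.94 ± 0.23, adjusted p = 0.0146, limma). Those groups did not overlap, whereas in SUDHL-2 the arrays overlapped, at -1.24, -0.57 and -0.79 against 0.12, -0.83 and -0.38. The other large subunit factors called in SUDHL-4 were the 28S rRNA methyltransferase NOP2 (-0.71, with its 3 kept probes all below 0), MRTO4, which holds the place of a stalk protein (-0.76), PPAN, related to yeast Ssf1 (-0.67), and the helicase DDX56 (-0.59).

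**Figure D2:**
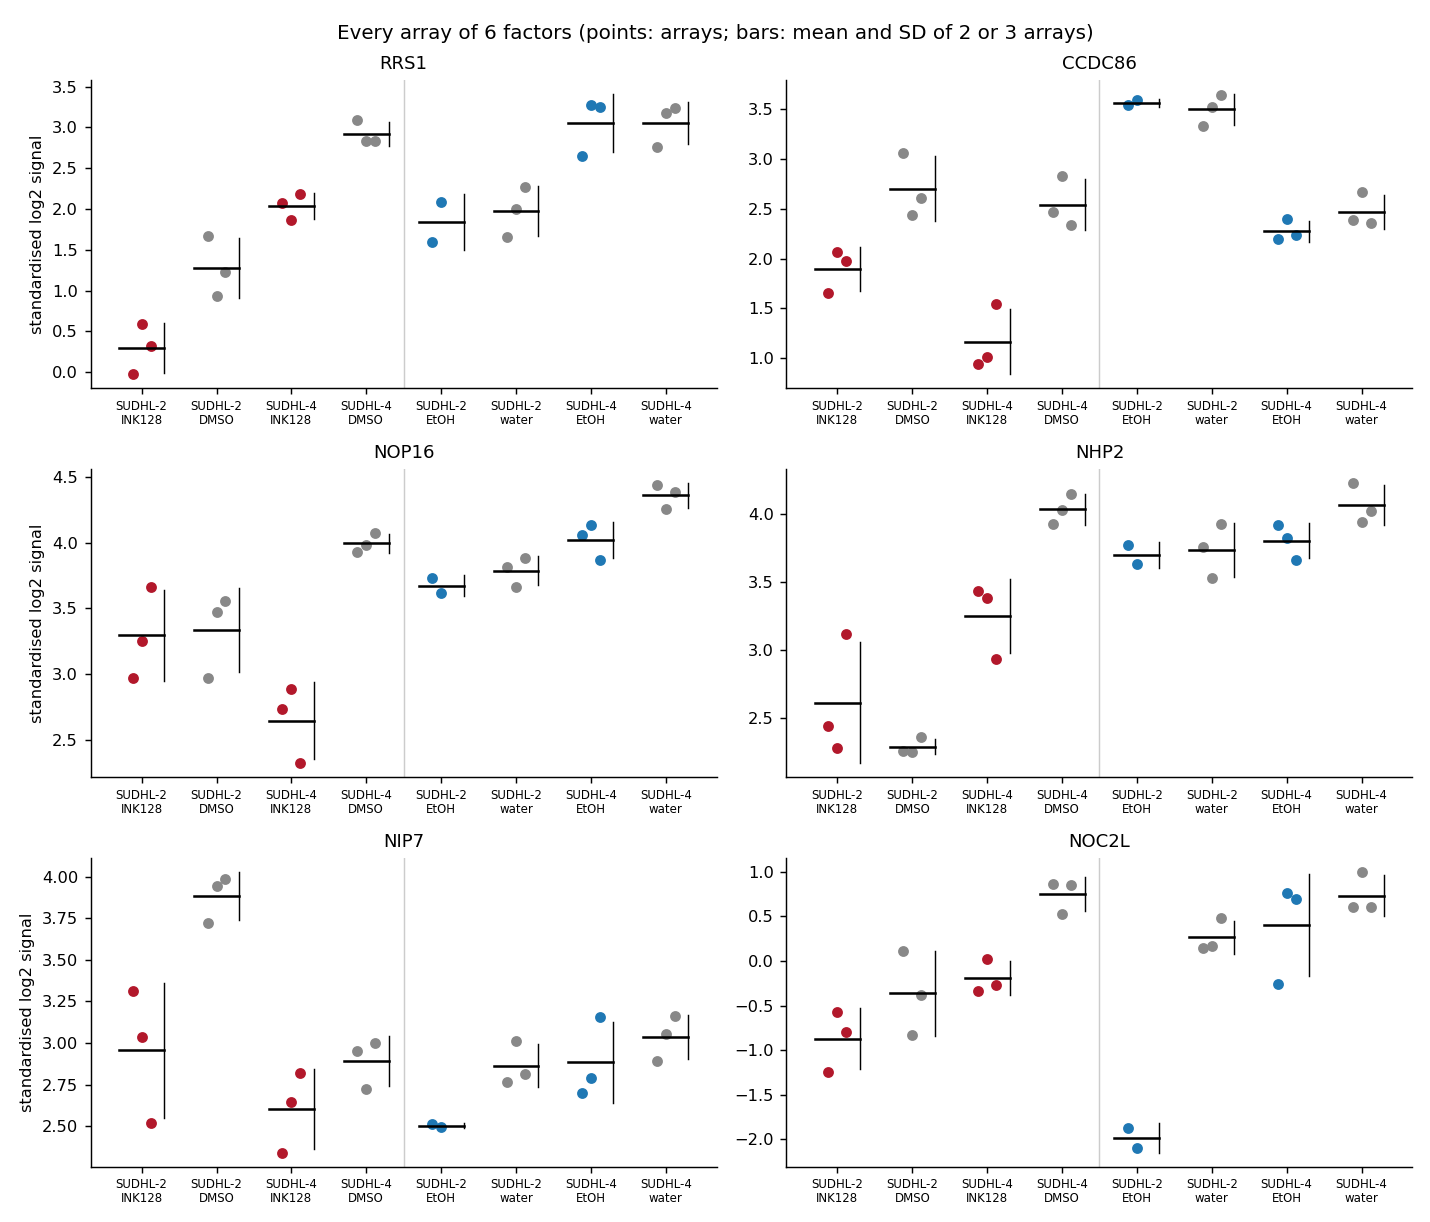
Standardised log2 signal (y axis, 0 is the mean of the probes kept on an array) of RRS1, CCDC86, NOP16, NHP2, NIP7 and NOC2L on every array (points) of the 8 groups (x axis), with the mean and SD of each group as bars. The INK128 arrays of RRS1 and CCDC86 lie below the DMSO arrays in both lines, those of NOP16 and NHP2 do so in SUDHL-4 alone, NIP7 in SUDHL-2 alone, and NOC2L lies about -2 on both SUDHL-2 EtOH arrays.

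In SUDHL-2 the other large subunit factors called were NIP7, PES1 and WDR12. NIP7, which binds RNA of the large subunit precursor, had 3.32, 3.04 and 2.52 with INK128 against 3.72, 3.94 and 3.99 with DMSO (-0.93 ± 0.19, adjusted p = 0.0209, limma). The groups did not overlap in SUDHL-2, but they did in SUDHL-4, where the log2 fold change was -0.29 ± 0.19, adjusted p = 0.396 (limma). PES1 and WDR12 form the PeBoW complex with BOP1. In SUDHL-2 the log2 fold change of PES1 was -0.72 (adjusted p = 0.044) and that of WDR12 -0.80 (adjusted p = 0.0384, limma). In SUDHL-4 PES1 had -0.54 and WDR12 -0.41 (adjusted p = 0.0597 and 0.192, limma). Their arrays did not overlap between the treatments in either line. BOP1 was called in neither line, with a log2 fold change of -0.02 in SUDHL-2 against one of -0.43 in SUDHL-4. The count in SUDHL-2 depended on single arrays. It was 0 without SUDHL-2 DMSO replicate 3, 10 without SUDHL-2 INK128 replicate 1, and 1 to 3 without any other SUDHL-2 array of this experiment or without SUDHL-4 DMSO replicate 1 or 3 or SUDHL-4 INK128 replicate 1 or 2. The SUDHL-4 count of 18 was 11 without SUDHL-4 DMSO replicate 1 or 3.

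The small subunit group had all 20 measured factors below 0 in SUDHL-2 and 19 of 20 in SUDHL-4, with 1 and 7 called. Of all 14636 entries 6314 were below 0 in SUDHL-2 and 8593 in SUDHL-4. LTV1, which acts in the maturation and export of the small subunit precursor, was the 1 called in SUDHL-2, with 3.48, 3.40 and 2.82 on the INK128 arrays against 3.93, 3.94 and 3.97 on the DMSO arrays (-0.71 ± 0.17, adjusted p = 0.0405, limma). Each INK128 array lay below the DMSO arrays, which differed from each other by less than 0.05. UTP15, of the t-UTP part of the SSU processome that joins Pol I transcription to processing, had a log2 fold change near that of RRS1, from -0.31, -0.54 and -1.34 on the INK128 arrays set against 0.78, -0.06 and 0.02 on the DMSO arrays. The groups did not overlap, but it was not called (-0.97 ± 0.29, adjusted p = 0.0859, limma). In SUDHL-4 the 7 called factors were bystin, BYSL (-0.88), the U3 snoRNP protein RRP9 (-0.78), RRP36, which acts in early cleavage (-0.69), UTP4 of the t-UTP part (-0.64), NOC4L, the partner of NOP14 (-0.57), the scaffold UTP20 (-0.42) and the GTPase-like TSR1 (-0.38). Of the 2 probes of TSR1, the one detected on every array had -0.49 (adjusted p = 0.0366, limma) and the other, detected on 1 of 3 INK128 arrays and all 3 DMSO arrays of SUDHL-4, had -0.26. The kept probe of UTP20 was detected on 2 of 3 INK128 arrays and all 3 DMSO arrays there.

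All 8 snoRNP factors were below 0 in SUDHL-4, where 8593 of all 14636 entries were. Of the 8 factors 2, both core proteins of box H/ACA particles, were called. GAR1 had 1.08, 0.96 and 1.28 with INK128 against 2.00, 1.77 and 1.62 with DMSO (-0.69 ± 0.16, adjusted p = 0.011, limma), and each of its 4 probes was below 0. NHP2 had 3.43, 3.38 and 2.94 with INK128 against 3.92, 4.03 and 4.15 with DMSO (-0.78 ± 0.20, adjusted p = 0.0178, limma). Neither group pair overlapped. In SUDHL-2, GAR1 had -0.47 (adjusted p = 0.125, limma). NHP2 had 2.44, 2.28 and 3.12 against 2.26, 2.26 and 2.36 in that line, an overlapping pair of groups with 1 INK128 array above the rest. NOP10, another core protein of these particles, had the highest log2 fold change of the 54 factors in SUDHL-2, with 5.71, 5.72 and 6.51 on the INK128 arrays against 4.91, 5.87 and 5.63 on the DMSO arrays (0.51 ± 0.25, adjusted p = 0.324, limma), and had 4.20, 4.03 and 3.72 against 4.56, 4.62 and 4.72 in SUDHL-4 (-0.65 ± 0.25, adjusted p = 0.107, limma). Its arrays overlapped in SUDHL-2 and did not in SUDHL-4. The box C/D proteins FBL, the methyltransferase, NOP56 and NOP58 had log2 fold changes of -0.34, -0.64 and -0.47 in SUDHL-2 and of -0.37, -0.33 and -0.30 in SUDHL-4, none called.

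None of the 5 measured Pol I factors of the list was called with either agent in either line. Of 12 further Pol I genes measured for comparison, 2 were lower with INK128 in each line and none was called with EtOH. Among all entries 1.47% were lower with INK128 in SUDHL-2 and 7.17% in SUDHL-4. With INK128 the catalytic subunit POLR1A had 0.00 in SUDHL-2 and -0.08 in SUDHL-4, POLR1B -0.18 and -0.45, and POLR1C, shared with Pol III, -0.30 and -0.33. The single probe of POLR1A was above background on 2 of 3 arrays in both SUDHL-2 groups, so its 0.00 is limited by background. The Myb-binding protein MYBBP1A had -0.54 in SUDHL-2 (95% interval -1.07 to -0.00) and -0.62 in SUDHL-4 (-1.16 to -0.09). RRN3, the initiation factor that brings Pol I to the rDNA promoter, had the highest log2 fold change of all factors in SUDHL-4, from 0.66, 0.75 and 1.43 with INK128 against 0.85, 0.44 and 0.75 with DMSO (0.27 ± 0.27, adjusted p = 0.648, limma). The arrays overlapped, and in SUDHL-2 its log2 fold change was -0.66 ± 0.27 (SE). Of the factors that act at several steps, nucleolin, NCL, had -0.65 in SUDHL-2 and a like -0.58 in SUDHL-4, and the helicase DDX21 -0.54 and -0.54, of which the last was called (adjusted p = 0.0289, limma).

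Besides NHP2, NOP10 and RRN3, the factors that were not below 0 in both lines were WDR74, NOC3L, NAT10 and POLR1A, and none of these was called. WDR74, related to yeast Nsa1 of the large subunit pathway, was above 0 in both lines, with -1.34, -1.37 and -1.47 on the INK128 arrays against -1.61, -1.44 and -1.53 on the DMSO arrays in SUDHL-2 and -0.68, -0.92 and -0.96 against -1.09, -0.92 and -0.83 in SUDHL-4. The arrays overlapped in both lines. NOC3L, of the NOC complexes, had 0.84, 1.31 and 1.69 with INK128 against 1.17, 1.04 and 1.47 with DMSO in SUDHL-4, again overlapping, and NAT10, the cytidine acetyltransferase of 18S rRNA, had a log2 fold change of 0.00 with a 95% interval of -0.61 to 0.62.

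The lines shared the direction of the INK128 response more than its order. Across the 54 factors the log2 fold changes in SUDHL-2 and SUDHL-4 correlated at -0.01 (Pearson r, a description over genes that share arrays), against 0.23 over all entries. Of the 22 factors called lower in a line, 4 were called in SUDHL-2 alone and 17 in SUDHL-4 alone. The difference between lines was tested for each factor, and 2 of 54 passed, both with the lower fold change in SUDHL-4, where 4.32% of all entries passed in either direction. NOP16 differed by 1.31 ± 0.29, adjusted p = 0.0252, and NHP2 by 1.11 ± 0.28, adjusted p = 0.0444 (SUDHL-2 minus SUDHL-4, limma). Neither count nor names were stable to the arrays used, with 0 called without any 1 DMSO array of SUDHL-4 or without its INK128 replicate 1 or 3, 1 called without SUDHL-2 DMSO replicate 2 or 3, and 5 without SUDHL-2 INK128 replicate 1. For CCDC86 the difference was 0.57 ± 0.29, adjusted p = 0.325, and for RRS1 -0.11 ± 0.27, adjusted p = 0.863 (limma), with a 95% interval of -0.70 to 0.49.

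**Figure D3:**
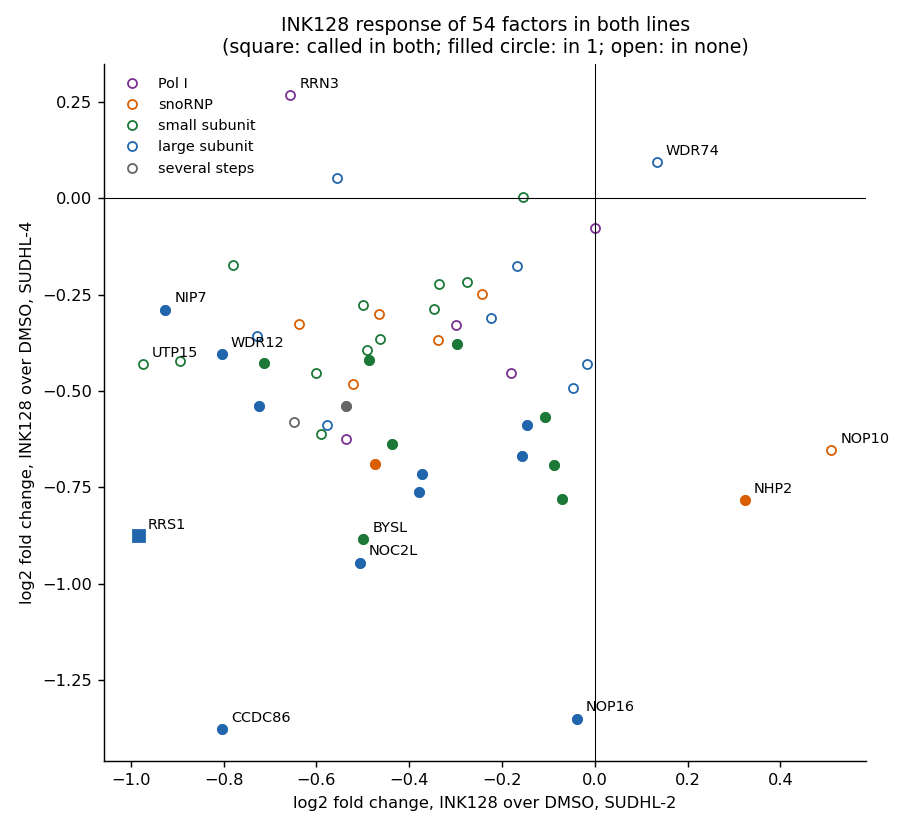
Log2 fold change with INK128 over DMSO of the 54 factors in SUDHL-2 (x axis) and SUDHL-4 (y axis), coloured by step. Squares were called in both lines, filled circles in 1 and open circles in none. Most factors (47 of 54) lie at the lower left, below 0 in both lines, RRS1 is the single square, and NOP16 and NHP2 lie low in SUDHL-4 alone.

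A further 114 ribosome biogenesis genes of the same steps and the RNA exosome were measured for comparison. With INK128, 8 were lower and none higher in SUDHL-2 (1.47% and 2.15% of all entries). In SUDHL-4, 20 were lower and 1 higher (7.17% and 8.27% of all entries). The medians were -0.27 in SUDHL-2 and -0.23 in SUDHL-4. Those with the smallest p in SUDHL-2 were the rRNA methyltransferase FTSJ3 (-0.63, adjusted p = 0.0214), the Pol I subunit POLR1E (-0.48, adjusted p = 0.0301), SBDS, which frees the large subunit of eIF6 (-0.62, adjusted p = 0.0388), and the cap methyltransferase TGS1 (-0.42, adjusted p = 0.0391, all limma). In SUDHL-4 they were RBM28, related to yeast Nop4 (-0.92, adjusted p = 0.000137), the small Pol I subunit POLR1H (-0.86, adjusted p = 0.000456), the exosome protein EXOSC3 (-0.79, adjusted p = 0.000825) and the box C/D protein SNU13 (-1.07, adjusted p = 0.00415, all limma). RPF2, the partner of RRS1, was lower in SUDHL-2 (-0.87 ± 0.22, adjusted p = 0.0449, limma) and is named for that partnership.

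EtOH was set against water to ask the same of EtOH. In SUDHL-2, 6 factors were lower and 3 higher, where 7.24% of all entries were lower and 8.94% higher, and the median log2 fold change of the 54 factors was -0.11 (all entries 0.05). The 2 EtOH arrays lay below the 3 water arrays for 17 factors (14.8% of all entries) and above them for 8 (23.3%). In SUDHL-4 no factor was called, where 0.082% of all entries were called lower and 0.307% higher, and the median was -0.02 (all entries -0.03). At an unadjusted p under 0.05 (limma), 9 of the 54 factors were lower and none higher there. At that threshold 806 of all 14636 entries were lower and 1242 higher.

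The largest fall with EtOH was that of NOC2L in SUDHL-2. Its single probe gave -1.87 and -2.10 on the EtOH arrays against 0.15, 0.17 and 0.48 on the water arrays, a log2 fold change of -2.25 ± 0.26, adjusted p = 0.000317 (limma). The groups lay about 2 log2 units apart. The probe was above background on all 3 water arrays but on 1 of the 2 EtOH arrays, and the -2.10 of the other is the floor set for that array, so these values and those that rest on them are limited by background. In SUDHL-4 it had -0.26, 0.77 and 0.70 with EtOH against 0.61, 1.00 and 0.60 with water, where 1 EtOH array lay below all others and the rest overlapped. The difference between lines was -1.92 ± 0.35, adjusted p = 0.0122 (SUDHL-2 minus SUDHL-4, limma), one of 2 factors that passed that test (5.31% of all entries did), and it fell short without SUDHL-2 EtOH replicate 2 (-1.80, adjusted p = 0.0656).

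Of the other 5 factors that were lower, GAR1 and NOC4L had over 1 kept probe, and the probes of both disagreed. GAR1 had 1.25 and 1.44 with EtOH against 1.70, 2.02 and 2.13 with water as the mean of its 4 probes (-0.61 ± 0.18, adjusted p = 0.0438, limma), and the groups did not overlap. Its probes had log2 fold changes of -2.04, -0.65, 0.04 and 0.23. NOC4L had -0.88 and -1.01 with EtOH against -0.19, -0.55 and -0.29 with water as the mean of 3 probes (-0.60 ± 0.12, adjusted p = 0.00624, limma), again without overlap. Of these probes 1 had -2.14 and was above background on 1 of 2 EtOH arrays, 1 had -0.07, and the one detected on every array had 0.40 with an adjusted p of 0.0307 of its own. The fall of both means thus came from 1 or 2 probes, and with the brightest probe of each gene alone the log2 fold change was 0.04 for GAR1 and 0.40 for NOC4L. The remaining lower factors were RRP9 (-0.53, adjusted p = 0.00641), RRP1B, a paralogue of the large subunit factor RRP1 (-0.48, adjusted p = 0.0421), and DDX21 (-0.39, adjusted p = 0.0473, all limma). The call of DDX21 held in 1 of 13 other settings and in 3 of 11 fits that left out an array, that of RRP1B in 8 and 3, and that of GAR1 in 7 and 4. NOC2L, NOC4L, RRP9, GAR1 and DDX21 had also been lower with INK128 in SUDHL-4. The share of all entries lower in both comparisons was not computed, so this overlap is not read as a shared response. For NOC4L the largest falls came from different probes: the one with 0.40 with EtOH had -1.04 with INK128 in SUDHL-4.

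**Figure D4:**
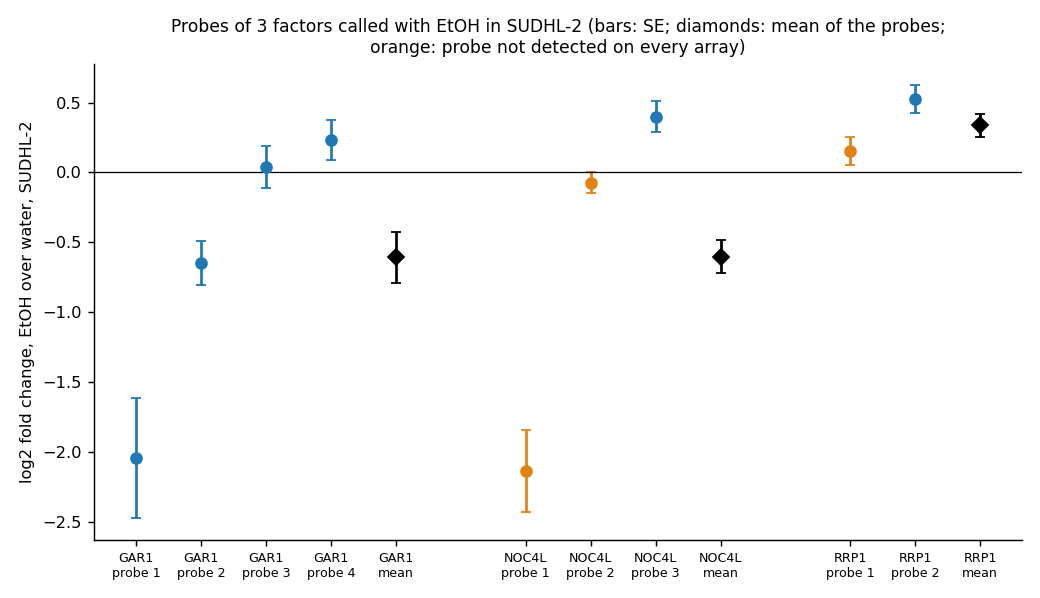
Log2 fold change with EtOH over water in SUDHL-2 (y axis) of each kept probe of GAR1, NOC4L and RRP1 (x axis), with SE bars. Diamonds are the means of a factor's probes, and orange marks probes not detected on every array. GAR1 probe 1 (-2.04) and NOC4L probe 1 (-2.14) lie apart from the other probes of the same genes.

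The 3 factors that were higher with EtOH in SUDHL-2 were NAT10, RRP12 and RRP1. NAT10 had 2.66 and 2.63 on the EtOH arrays against 2.18, 2.12 and 2.27 on the water arrays (0.45 ± 0.10, adjusted p = 0.00852, limma). RRP12, which acts in the export of the small subunit precursor, had 0.44 and 0.52 with EtOH against -0.04, 0.11 and 0.25 with water (0.37 ± 0.11, adjusted p = 0.0447, limma). RRP1, a large subunit factor, had 0.05 and -0.10 with EtOH against -0.33, -0.46 and -0.29 with water (0.34 ± 0.08, adjusted p = 0.0172, limma). Neither EtOH array overlapped the water arrays for any of the 3. The call of RRP12 held in 5 of 13 other settings and in 3 of 11 fits that left out an array. The probe of RRP1 seen on every array had a log2 fold change of 0.52, and the other, above background on both EtOH arrays and 1 of 3 water arrays, 0.15. That second probe passed the filter through the SUDHL-2 EtOH group alone. In SUDHL-4 RRP1 had -0.20, and the lines differed by 0.54 ± 0.11, adjusted p = 0.0213 (limma). With arrays of 1 title number as a replicate block, the count of factors higher in SUDHL-2 was 5 in place of 3, and 6 factors in place of 2 differed between the lines. The counts also rested on the 2 EtOH arrays, with 3 lower and 0 higher without replicate 1 and 1 lower and 1 higher without replicate 2. Without SUDHL-4 water replicate 1 or 3 the lower count was 3, and 1 factor differed between the lines without either SUDHL-2 EtOH array, SUDHL-4 water replicate 1 or 3, or SUDHL-4 EtOH replicate 3.

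In SUDHL-4 the fold changes with EtOH ran from -0.38 to 0.17. The 3 lowest factors were PES1, BOP1 and NOP16. PES1 had 1.10, 1.60 and 1.67 with EtOH against 1.72, 1.90 and 1.88 with water, BOP1 3.97, 4.20 and 4.18 against 4.49, 4.47 and 4.48, and NOP16 4.05, 4.13 and 3.86 against 4.44, 4.26 and 4.38. All EtOH arrays lay below all water arrays for each of them, as for 11 factors in all (24.6% of all entries), and the adjusted p were 0.239, 0.166 and 0.129 (limma). The 3 highest were WDR12 (0.17 ± 0.10), NAT10 (0.17 ± 0.09) and the helicase DDX10 (0.17 ± 0.11, SE), whose arrays overlapped, at 2.25, 2.23 and 2.37 with EtOH against 1.98, 2.25 and 2.10 with water for WDR12. RRS1 and CCDC86 were at -0.00 ± 0.21 and -0.20 ± 0.11 (SE) in SUDHL-4 and at -0.14 ± 0.24 and 0.07 ± 0.12 in SUDHL-2. RRS1 had 1.59 and 2.08 with EtOH against 1.65, 2.00 and 2.27 with water in SUDHL-2 and 2.65, 3.27 and 3.25 against 2.76, 3.17 and 3.24 in SUDHL-4, which overlapped in both lines.

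Of the 114 further genes, 4 were lower and 4 higher with EtOH in SUDHL-2, where 7.24% of all entries were lower and 8.94% higher. None was called in SUDHL-4, where 0.082% and 0.307% of all entries were. The smallest p in SUDHL-2 belonged to TSR3, which modifies 18S rRNA (0.70, adjusted p = 0.00184), the kinase RIOK1 of the small subunit precursor (-0.68, adjusted p = 0.0069), PELP1, of a complex acting in large subunit maturation (0.77, adjusted p = 0.00736), and the helicase DHX37 (-0.64, adjusted p = 0.0142, all limma). In SUDHL-4 the smallest were POLR1H (-0.35), the Pol I termination factor TTF1 (0.33), the helicase DDX24 (0.35) and FCF1 of the SSU processome (-0.34), with adjusted p from 0.0723 to 0.125.

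The EtOH response was also set against the INK128 response in each line, although 48 h of EtOH and 24 h of INK128 differ in exposure time as well, so that agent and time cannot be told apart. In SUDHL-4, 7 factors had a higher log2 fold change with EtOH than with INK128 and none a lower one (4.51% and 4.74% of all entries). They were CCDC86 (1.18, adjusted p = 0.00414), NOP16 (1.01), BYSL (0.87), UTP4 (0.77), DDX21 (0.71), NOP2 (0.61) and RRP9 (0.55, adjusted p = 0.0408), all of which had been lower with INK128. In SUDHL-2 UTP20 (0.82, adjusted p = 0.00993) and RRP12 (0.96, adjusted p = 0.0473) were higher and NOC2L was lower (-1.74, adjusted p = 0.00688, limma), where 2.69% and 3.51% of all entries were. UTP20 had -0.93 and -0.98 with EtOH against -1.33, -1.48 and -1.06 with water and -1.47, -1.37 and -1.41 with INK128 against -1.05, -0.84 and -0.90 with DMSO, without overlap in either pair. The median over the 54 factors was 0.32 in SUDHL-2 and 0.43 in SUDHL-4. In SUDHL-4 the count was 4 without SUDHL-4 EtOH replicate 3, and in SUDHL-2 it was 5 without DMSO replicate 2 or INK128 replicate 2 and 1 without EtOH replicate 2.

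On the vehicle arrays the lines differed in many factors, as they did in many of all entries. With DMSO 21 of 54 factors were lower in SUDHL-2 than in the other line and 18 were higher, where 29.1% and 26.9% of all entries were, and with water 18 were lower and 15 higher (38.3% and 27.5% of all entries). In both vehicles 12 factors were higher and 14 lower in SUDHL-2, for which the shares of all entries were not computed. HEATR1, WDR75 and UTP15 of the t-UTP part were higher with DMSO by 1.77, 2.30 and 0.97 (adjusted p = 8.06e-07, 0.000141 and 0.0119, limma), and with water by 1.22, 1.15 and 0.17, of which that of UTP15 was not called (adjusted p = 0.265). NOP58 was higher by 1.85 with DMSO and 0.64 with water, and WDR12 by 1.65 and 0.73, whereas its PeBoW partner PES1 was lower, at -1.01 and -0.79. Pol I subunit POLR1B was lower in SUDHL-2, at -1.16, -1.59 and -1.45 with DMSO against 0.18, 0.32 and 0.02 in SUDHL-4 (-1.57 ± 0.14, adjusted p = 1.4e-06, limma), without overlap, and by -1.43 with water. RRS1 was lower as well (-1.64 with DMSO, -1.08 with water), as were DDX56 (-1.82, -0.85), NAT10 (-1.83, -0.69) and RRP12 (-1.65, -1.12).

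The line difference was not the same in each vehicle for all factors. CCDC86 had 0.16 ± 0.21 with DMSO and 1.03 ± 0.11 with water, and NHP2 -1.74 ± 0.20 and -0.33 ± 0.12 (SUDHL-2 minus SUDHL-4, SE). The GTPase GNL2 was the 1 factor called in opposite directions, at 0.76 ± 0.18, adjusted p = 0.00271 with DMSO and -0.43 ± 0.12, adjusted p = 0.0091 with water (limma). The difference between the vehicles was not tested, since they belong to separate experiments with other exposure times. Across the 54 factors the differences correlated at 0.82 (Pearson r over genes that share arrays within a vehicle), near the 0.79 of all entries.

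**Figure D5:**
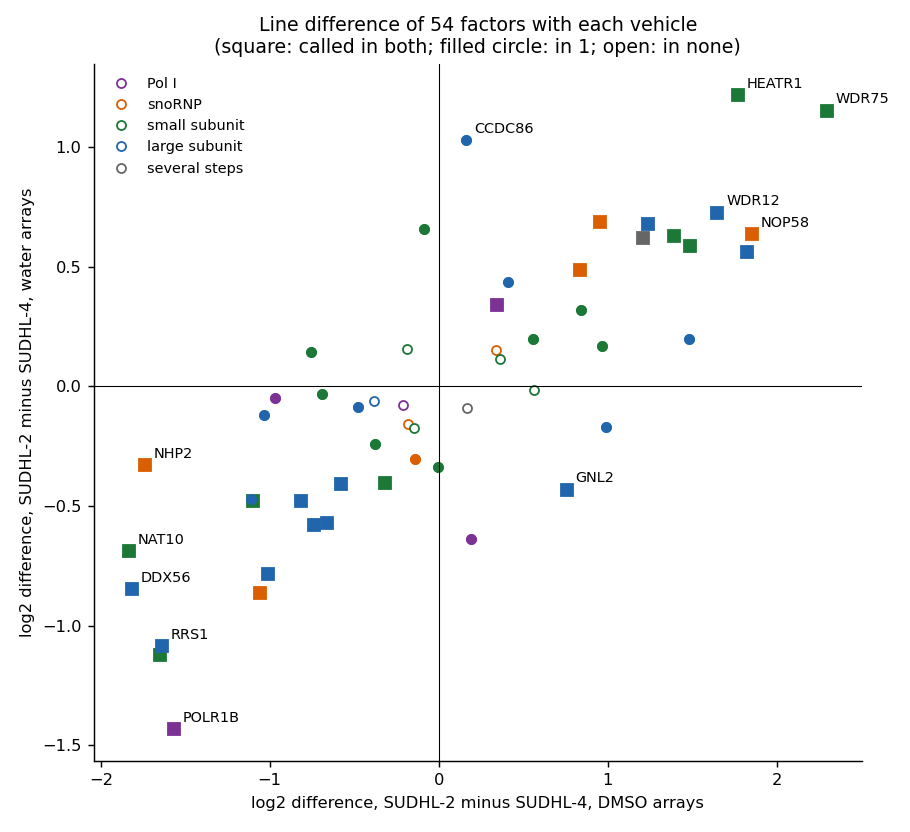
Log2 difference between lines (SUDHL-2 minus SUDHL-4) of the 54 factors on the DMSO arrays (x axis) and the water arrays (y axis), coloured by step. Squares were called with both vehicles, filled circles with 1 and open circles with none. Most squares lie along the rising diagonal, with WDR75 and HEATR1 at the upper end, POLR1B and NAT10 at the lower, and GNL2 the single square off it.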

How the data were processed

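Per the submitters' processing notes the scanner data were handled in GenomeStudio 1.9.0. The deposited intensity of a probe is non-normalized, and beside it the authors gave a detection p-value against negative controls. The deposited score table equals per-array Z-scores of the log signal over all probes and served as an alternative. Any scaling inside GenomeStudio is not stated. Of 47323 probes 92 had no values, and 18136 were kept, each with a detection p of 0.02 or less on all arrays of 1 or more groups. Signals were floored at the lowest detected signal of their array (59.4 to 91.4) and logged (base 2), and Z-scores per array were multiplied by the mean array SD, 2.03. Probes of 1 symbol were averaged, giving 14636 entries. limma 3.58.1 in R 4.3.3 fitted the 4 groups of an experiment together (12 and 11 arrays; all 23 for EtOH minus INK128), with moderated tests, Benjamini-Hochberg adjustment over all entries and a threshold of 0.05. Independent replicates are stated only in a legend, so the p-values may measure technical spread. The number of arrays limits the precision. The fits were tested on simulated data, and matplotlib 3.10.9 (Python 3.11.15) drew the figures.

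The members, the list of further genes and the tests were chosen with earlier results of these data known, as was the rule for named genes: values on every array for factors called in both lines, for the 3 lowest and 3 highest of each treatment comparison and for RRS1 and CCDC86, and the 4 further genes with the smallest p. UTP20 and the other genes with array values beyond these were chosen after their values were seen. Same-numbered EtOH and water arrays deviated together from their group means (correlations of 0.42 and 0.55 in SUDHL-2 and of 0.39, 0.19 and 0.14 in SUDHL-4), so by that check the title numbers pair them, though no source states a pairing. Numbers in the array names pair SUDHL-4 differently (0.39, 0.04 and 0.25). The alternatives changed the scaling, background correction, detection filter, probe choice, arrays fitted together, pairing and array weights, and left out each array in turn. Polysome profiles and total RNA were not analysed here. Promoter sequences are those of RefSeq.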

Additional observations from a re-analysis of the deposited data

Results flagged for a closer look

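The INK128 response of 2 of 54 factors differed between the lines by the test of the difference itself, where 4.32% of all entries did. NOP16 had a log2 fold change of -0.04 in SUDHL-2 and -1.35 in SUDHL-4, a difference of 1.31 ± 0.29, adjusted p = 0.0252 (limma), and NHP2 had 0.32 and -0.78, a difference of 1.11 ± 0.28, adjusted p = 0.0444 (limma). Each was read by probes detected on every array. The call of NHP2 was lost in 6 other settings and without any 1 of 9 arrays, and that of NOP16 with no detection filter and without any 1 of 5 arrays.

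The EtOH response of 2 of 54 factors also differed between the lines, where 5.31% of all entries did. NOC2L had -2.25 in SUDHL-2 and -0.33 in SUDHL-4, a difference of -1.92 ± 0.35, adjusted p = 0.0122 (limma), from 1 probe that was above background on 1 of the 2 SUDHL-2 EtOH arrays and at the floor on the other. RRP1 had 0.34 and -0.20, a difference of 0.54 ± 0.11, adjusted p = 0.0213 (limma). Its probe detected on every array had 0.52 against -0.32. The other probe, at 0.15 against -0.08, was called for neither line (adjusted p = 0.365 and 0.691, limma). Only the SUDHL-2 EtOH arrays let that probe through the detection filter, so its direction is not separate evidence. No group held 4 or more arrays, so single arrays were not tested for standing apart.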

How the results depend on the processing

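Both the log2 fold changes and the counts of calls moved between the alternative runs. With INK128 in SUDHL-4 the log2 fold change ran from -0.75 to -0.14 for UTP20 and from -0.77 to -0.54 for UTP4. Of the 18 factors lower with INK128 in SUDHL-4, UTP4, NOC4L, RRP9, BYSL, RRS1, CCDC86, NOP16 and NOP2 were called in every alternative run. None of the 5 called with INK128 in SUDHL-2 was. Of the 9 called with EtOH in SUDHL-2, NOC2L was called in each run that kept its probe. The run limited to probes detected on all arrays did not keep it. Of the 36 single results named as called, 2 changed sign, both with EtOH in SUDHL-2: GAR1 was 0.0402 with the brightest probe, and NOC4L was 0.40 with the brightest probe and 0.42 with probes detected on all arrays.

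Main counts are given first. The share of all entries called is not given for the alternative runs, including those without an array. These counts therefore do not separate a change in the factors from a change in calls over all entries. With INK128 in SUDHL-2, 5 factors were lower, against 8 with quantile normalization, 1 with no detection filter, 0 with each line fitted alone, 22 with all arrays in 1 fit and 27 with array weights. In SUDHL-4, 18 were lower, against 11 with no detection filter, 30 with the line alone, 31 with all arrays in 1 fit and 49 with array weights. With EtOH in SUDHL-2, 6 were lower, against 3 with the Z-score over all probes, with no filter or with array weights, and 3 were higher, against 1 with the line alone, 0 with all arrays in 1 fit and 5 with the replicate block by title number. Array weights gave 4 lower with EtOH in SUDHL-4, where the main count was 0. The INK128 line difference had 2 factors, against 1 with the Z-score over all probes, normexp or the deposited scores, 0 with no filter, 4 with all arrays and 17 with array weights. The EtOH line difference had 2, against 1 with all-array detection, no filter or all arrays in 1 fit, 6 with either replicate block and 4 with array weights. EtOH minus INK128 had 3 in SUDHL-2, against 5 with quantile normalization, 7 with median centring, 1 with all-array detection and 18 with array weights, and 7 in SUDHL-4, against 37 with array weights. The weights were estimated gene by gene, since the default estimate stopped before convergence in 2 of 3 fits. For the rest the cause was not tested. Median centring moved the median of all entries by 0.11 in the INK128 and 0.14 in the EtOH line difference.

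Without single arrays the counts ranged from 0 to 10 (INK128 lower, SUDHL-2), 11 to 26 (INK128 lower, SUDHL-4, with 11 without DMSO replicate 1 or 3), 1 to 7 and 0 to 4 (EtOH lower and higher, SUDHL-2), 0 to 5 (INK128 line difference), 1 to 3 (EtOH line difference), 1 to 5 and 4 to 10 (EtOH minus INK128 in SUDHL-2 and SUDHL-4). The line differences stayed at 34 to 41 with DMSO and 30 to 35 with water. INK128 and DMSO arrays of 1 number did not all deviate together (correlations of 0.47, -0.21 and 0.27 in SUDHL-2 and of -0.30, 0.22 and 0.17 in SUDHL-4). With the replicate block the calls of PES1 in SUDHL-2 (adjusted p = 0.0588) and of UTP20, TSR1 and DDX56 in SUDHL-4 (0.0762, 0.055 and 0.0564, limma) were lost. The call of DDX21 with EtOH was lost with the block by title number (0.0768), as in most other settings. Low signal limits POLR1A, which was above background on neither SUDHL-2 EtOH array and on 2 of 3 arrays in the SUDHL-2 DMSO and INK128 groups. It also limits NOC2L on 1 SUDHL-2 EtOH array, UTP20 on 1 SUDHL-4 INK128 array, 1 of the 2 probes of TSR1 and 1 of the 2 probes of RRP1.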
